A study of Mus musculus with 82 samples.

Results

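Cytosolic ribosomal protein genes were followed through hematopoietic stem cells (HSCs) of young and old mice, HSCs carrying an shRNA, and the young progenitors CMP, GMP and MEP. Members were chosen by symbol alone, as genes named Rpl or Rps with a number and at most one letter a, x or l, together with Rplp0, Rplp1 and Rplp2, and 82 of the 55376 genes in the count tables met this rule. Of these, 48 are named as proteins of the large subunit, 31 of the small subunit and 3 of the stalk. The annotation (GENCODE M21, mm10) lists 79 as protein-coding genes, Rpl32l and Rpl6l as processed pseudogenes and Rps4l as a transcribed processed pseudogene, spread over 19 chromosomes. The symbol rule leaves out some ribosomal proteins with other names, such as Rpsa and Fau, which are given separately.

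The ribosome is built from rRNA and one copy of most of these proteins, so their genes are usually transcribed together and at high levels. Their mRNAs commonly begin with a run of pyrimidines (C or T), the terminal oligopyrimidine tract, through which mTOR signalling sets their translation. HSCs are known for a low rate of protein synthesis, and erythroid progenitors for their sensitivity to a shortage of ribosomal proteins. Some members also have relatives that can take their place in the ribosome, among them Rps27l for Rps27.

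HSCs came from male C57BL/6J mice. Young mice were 3 to 4 and old mice 24 to 26 months of age, and the fresh RNA-seq set held 4 young (YHSC) and 8 old (OHSC) libraries. Young samples were pools of mice and old samples single mice. Per the study, young mice were bought from The Jackson Laboratory and old mice came from the NIA Aged Rodent Colony. Age and source therefore cannot be told apart. In the knockdown experiments, OHSCs were infected with lentivirus carrying either a control shRNA or one of 2 shRNAs (shRNA1, shRNA2) aimed at the short form of Btaf1, a regulator of the TATA-binding protein. They were profiled after 3.5 days in culture or after growth in young female recipients, with 2 libraries per shRNA and experiment. Per the study, fresh and transplanted HSCs were sorted by different surface markers, and cultured cells as GFP-positive. Transplanted libraries were pools of several recipients, per the study. The labels do not say whether the cultured libraries came from separate cultures, so their p-values measure only the spread between these libraries. Young common myeloid progenitors (CMP), granulocyte-macrophage progenitors (GMP) and megakaryocyte-erythroid progenitors (MEP) had 2 libraries each, with no label on whether they came from separate animals. ATAC-seq of 4 young and 4 old libraries and H3K27ac ChIP-seq of 2 per age gave the state of the promoters.

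Between 20475764 and 42737054 reads were counted on genes per RNA-seq library, and 15427900 to 26260300 in regions per ATAC-seq library. The 10 HSC markers summed to 5012 to 5488 CPM (counts per 1000000 reads on genes) in fresh HSCs, 2330 to 2570 in culture, 3913 to 4342 after transplantation and 535 to 1196 in the progenitors. The 8 erythroid markers reached 6115 to 6536 CPM in MEPs, while the 9 granulocyte and monocyte markers reached 55960 to 56950 CPM in GMPs. MEPs held 6 megakaryocyte markers at only 24.3 to 25.1 CPM, below the 490.6 to 511 CPM of YHSCs. A young library, YHSC replicate 4, stood apart with 1042 CPM of 8 B cell markers, where the other young libraries had 136 to 285 CPM. In bulk samples, fewer cells of a type and less RNA per cell cannot be told apart.

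Sequence around the transcription start was read from RefSeq promoters (GRCm38.p6, the same assembly as mm10), which held 60 of the 82 members. A run of at least 8 C or T bases, touching the 5 bases on either side of the start, was found in 24 of the 60 members (40%) and in 10.96% of the 27025 genes in the table. The median longest run was 6 bases in members and 4 in all genes. The sequence TATAAA, sought on the gene's strand from 40 to 16 bases upstream of any of its starts, was in none of the 60 members and in 2.41% of all genes. Both are descriptions of these letters in this window. Rpl7a and Rpl15 are shown for their long runs, Rplp2 for the stalk, Rps6 for the substrate of S6 kinase, Rps27 and Rps27l as a pair of paralogs described below, and Rps19 and Rplp0 as members with short runs. Each window holds 15 bases before and 15 from the start on, 5′ to 3′ on the gene's strand, with the pyrimidine run in capitals.
Rpl7a (chr2:26910792-26910821, plus strand): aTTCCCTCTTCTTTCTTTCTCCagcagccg
Rpl15 (chr14:18270972-18271001, minus strand): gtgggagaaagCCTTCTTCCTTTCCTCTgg
Rplp2 (chr7:141447636-141447665, plus strand): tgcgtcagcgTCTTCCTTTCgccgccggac
Rps6 (chr4:86857353-86857382, minus strand): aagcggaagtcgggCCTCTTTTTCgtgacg
Rps27 (chr3:90213634-90213663, minus strand): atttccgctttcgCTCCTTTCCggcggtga
Rps27l (chr9:66946071-66946100, plus strand): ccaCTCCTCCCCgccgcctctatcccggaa
Rps19 (chr7:24884661-24884690, plus strand): ccgcacggtgagtgagggCTCTgggtcgcg
Rplp0 (chr5:115559452-115559481, plus strand): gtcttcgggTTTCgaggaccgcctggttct

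Ribosomal protein mRNAs took 2.39% to 3.05% of the reads in every library except those of MEP. The 82 members held 2.66% to 2.79% of the reads on genes in the 4 YHSC libraries and 2.62% to 3.05% in the 8 OHSC libraries, which overlapped. In culture the share was 2.39% to 2.51% with the control shRNA and 2.50% to 2.54% with the Btaf1 shRNAs. After transplantation it was 2.69% in both controls and 2.63% to 2.78% with the Btaf1 shRNAs. CMP and GMP lay at 2.70% ± 0.065 (SD, n = 2) and 2.61% ± 0.084. MEP stood above every other library, at 3.53% and 3.66%. The ratio of large subunit and stalk reads to small subunit reads stayed between 1.43 and 1.48 in all 30 libraries. The share was not tested.

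**Figure D1:**
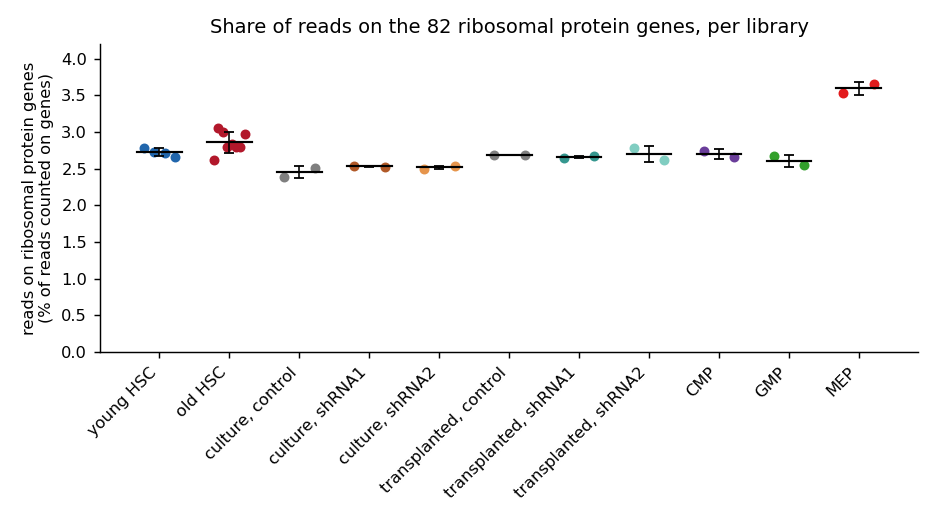
Share of reads on the 82 ribosomal protein genes (y axis, percent of all reads counted on genes) in each RNA-seq library (points), with the mean and SD of each group (lines and bars). The 2 MEP libraries lie at 3.53% and 3.66%, above every other library.

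Within YHSCs the members spanned a wide range. Per kb of the principal transcript, the highest levels were those of Rps27 at 1473 CPM per kb, Rpl13 at 1225, Rps18 at 1162, Rps19 at 1006 and Rpl37a at 955, against a median of 333 over the 82 members. Rps19, the gene most often mutated in Diamond-Blackfan anemia, was among them. The 5 lowest were Rpl10l, Rpl3l, Rpl39l, Rpl32l and Rpl6l, at 0.0334 to 1.38 CPM per kb. Rpl10l and Rpl39l are known from testis and Rpl3l from striated muscle. Rps10, Rpl13a and Rpl24 were also low, at 8.37, 14.8 and 19.8 CPM per kb. Of the exon bases of these 3 genes, 28.7%, 35.4% and 47.0% overlap another annotated gene on the same or the opposite strand, to which reads can be lost in gene counting, so their levels are uncertain. Rpl35 and Rpl23a, with 66.2% and 62.3% of their exon bases overlapped, stood at 279 and 595 CPM per kb. The genes that overlap Rpl35 lie on the opposite strand, and Snord42b alone overlaps Rpl23a on its own strand. Rps10, Rpl13a and Rpl24 each overlap genes on their own strand. The part of overlap in these levels was not tested. Rpl13, Rps18 and Rps19 stayed among the 5 highest of every group except MEP, where Rplp0 and Rps29 stood beside Rpl13 and Rps18. Rps27 led in YHSCs and OHSCs but was not among the 5 highest in CMP, GMP or MEP.

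Ribosomal protein mRNAs stood slightly higher in OHSCs than in YHSCs, and a single member, Rps4l, was far lower. With edgeR's quasi-likelihood test and an adjusted p below 0.05, 31 of the 79 members tested rose in OHSCs and 1 fell, where 12.8% of all 21522 genes tested were called higher and 8.28% lower. The 3 members left out for low counts were Rpl3l, Rpl10l and Rpl39l. None of the rises exceeded 1.5-fold, the limit that 4.8% of all genes passed upward and 2.77% downward. Of the 79 fold changes, 76 were above 0, with a median log2 fold change of 0.12, against 0.0014 over all genes. The large subunit (18 of 45 up, median 0.12) and the small subunit (13 of 31 up, median 0.12) had like medians, and no stalk gene passed the test.

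Among members that passed the test, the 5 largest rises were Rpl12, Rpl36a, Rpl39, Rpl3 and Rps15a. Rpl3, part of the peptidyl transferase centre, was at 1011, 1008, 987 and 965 CPM in YHSCs and at 1039 to 1155 CPM (median 1099) in OHSCs. All OHSC libraries lay above all YHSC libraries, a rise of 0.21 ± 0.037 (log2 fold change, SE; adjusted p = 1.62e-04). Rpl36a likewise did not overlap, with 157 to 164 CPM in YHSCs and 169 to 196 CPM in OHSCs (log2 fold change 0.23). Rpl12, a protein at the base of the stalk, had the largest of these rises, 0.25 ± 0.055 on the log2 scale (adjusted p = 0.00185), but the OHSC libraries (215 to 281 CPM) reached down into the YHSC range (209 to 229 CPM).

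Among members linked to Diamond-Blackfan anemia, Rps19 (log2 fold change 0.16), Rps24 (0.15), Rps26 (0.13) and Rpl5 (0.14) rose. Rps7 (0.11), Rpl11 (0.12), Rpl35a (0.06) and Rps10 (-0.11) did not pass the test. Rps14, the gene deleted in the 5q- syndrome, had a log2 fold change of 0.10 with an adjusted p of 0.085 by edgeR. Rps6, the S6 kinase substrate, rose by 0.17 and Rpl23, an inhibitor of Mdm2, by 0.17.

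The count of rises rested on which young libraries entered. It was 9 without YHSC replicate 2, 11 without replicate 3 and 9 without replicate 4, the library with the most B cell marker reads, and 41 without OHSC replicate 1, whose share of reads on members was the lowest of the old libraries (2.62%). Of all genes, 2142 of 22009 were called higher without YHSC replicate 2, 2129 of 22444 without replicate 3 and 2218 of 22309 without replicate 4. Without OHSC replicate 1 it was 2514 of 21526. The median log2 fold change of members was 0.12 with spike-in size factors and 0.072 with library size scaling. Sums of other markers differed between the same libraries. The 5 T and NK cell markers summed to 23.6 to 27.2 CPM in YHSCs and 65.5 to 91.4 CPM in OHSCs, with no overlap, and the 9 granulocyte and monocyte markers to 565 to 730 and 693 to 815 CPM. The 8 B cell markers summed to 136 to 1042 CPM in YHSCs and 44.2 to 278 CPM in OHSCs. The 8 erythroid markers gave 164 to 225 and 49.2 to 221 CPM, and the 6 megakaryocyte markers 490.6 to 511 and 857 to 1188 CPM. Of 7 cell cycle genes, the sum was 422 to 472 CPM in YHSCs and 284 to 392 CPM in OHSCs. Their part in the rise was not tested.

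Other parts of the translation machinery were given for context. Of 16 translation factors, 7 rose with age and none fell, with a median log2 fold change of 0.12, including Eef1a1, the main elongation factor (0.18), Eef2 (0.17), Eif4e, the cap-binding protein (0.17), and its inhibitor Eif4ebp1 (0.15). Of 9 ribosomal proteins that the symbol rule misses, Rpl22l1 (0.21), Rpsa (0.16) and Rps3a1 (0.13) rose. None of 30 ribosome biogenesis genes passed the test, with a median of 0.013. Of 76 mitochondrial ribosomal protein genes tested, 6 rose and 2 fell (median 0.020). Whether these lists differ from the members was not tested.

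Rps4l, a retrocopy of the X-linked gene Rps4x, was the one member that fell with age. Its RNA was at 23.8, 26.96, 22.6 and 23.3 CPM in the 4 YHSC libraries and at 5.27 to 12.9 CPM (median 7.75) in the 8 OHSC libraries, with no overlap. The fall was 2.91-fold (log2 fold change -1.54 ± 0.16, SE; adjusted p = 4.35e-06, edgeR), and it stayed between -1.66 and -1.43 on the log2 scale under all 20 alternatives tried. Rps4x itself rose by 0.13. Per kb, Rps4l stood at 5.44 ± 0.29 (SD, n = 4) for every 100 of Rps4x in YHSCs and at 1.70 ± 0.49 (n = 8) in OHSCs. CMPs and GMPs of young mice had 5.62 ± 0.36 and 5.49 ± 0.36 per 100, MEPs 1.94 ± 0.22. The old HSCs of the knockdown experiments had 1.73 ± 0.052 in control culture and 1.14 ± 0.11 in transplanted controls. Reads that match both copies can be counted on either one or dropped, so the level of Rps4l is uncertain.

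The promoter of Rps4l (chromosome 6, gene at 148354656 to 148355598, plus strand, mm10) moved with its RNA in both chromatin assays. The ATAC-seq region over its start, at 148354470 to 148355022 in the deposited coordinates, held 2.40 to 2.97 CPM in the 4 YHSC libraries and 0.517 to 1.04 CPM in the 4 OHSC libraries, with no overlap (log2 fold change -1.77 ± 0.25, SE; adjusted p = 6.47e-08, edgeR across all regions). All 4 old libraries lay below the filter limit of 1.5 CPM, so this region was tested only through the 4 young ones. The H3K27ac peak at the promoter had a normalized signal of 2.21 and 2.02 in YHSCs and of 0.836 and 0.622 in OHSCs. The ratio of old to young means was 0.345, and each old library had 0.282 to 0.414 of each young one. In YHSCs the promoter ranked at percentile 21.5 of all promoter peaks for H3K27ac and 11.7 for H3K4me3, the mark of active starts. It also lay in a region of H3K27me3, the mark of Polycomb silencing, at 0.266 and 0.270, which is percentile 3.49 among promoter peaks of that mark.

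**Figure D2:**
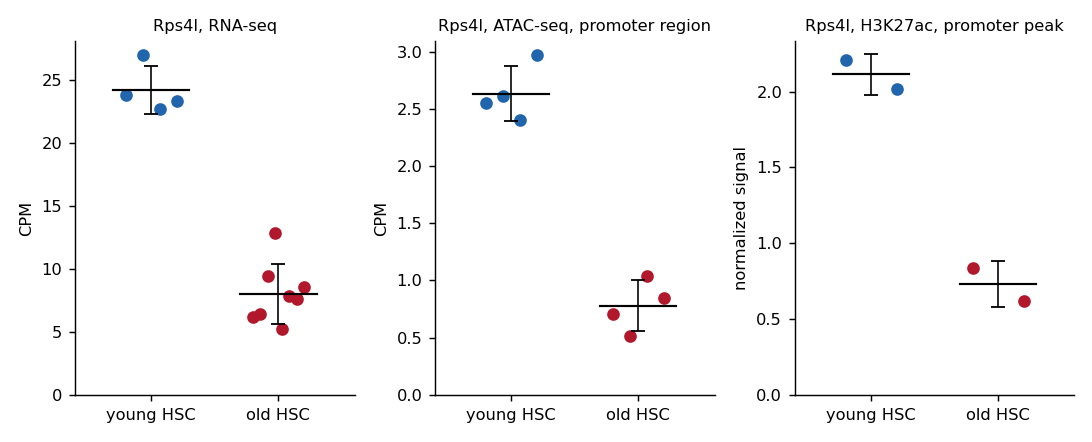
Rps4l in young (blue) and old (red) HSCs by RNA-seq (CPM), ATAC-seq at the promoter (CPM) and H3K27ac at the promoter peak (normalized signal), 1 point per library with mean and SD. In each assay every old library lies below every young library.

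The promoters of the other members were open in both ages. After the filter on low counts, 77 ATAC-seq regions covered the promoters of 72 members, from 1000 bp upstream to 100 bp downstream of a start. Their median level in YHSCs was 25.3 CPM, against 4.73 CPM over all 89245 regions tested. In OHSCs 38 of the 77 were lower and none was higher at an adjusted p below 0.05, where 15.3% of all regions were lower and 18.4% higher. Promoter regions of protein-coding genes as a class were lower in 37.2% and higher in 5.29% of 15063 regions, so the members' share lies nearer to that background. The median log2 fold change was -0.16 at members and -0.14 at promoters of protein-coding genes. Past 1.5-fold and an adjusted p of 0.01, Rps4l alone remained among the members, where 2.9% of all regions and 1.92% of promoter regions were that much lower. The Rps4l region had passed the filter through its young libraries alone.

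After Rps4l, the largest falls in accessibility were at Rpl19 (-0.52), Rplp2 (-0.48), Rpl32 (-0.45) and Rps12 (-0.45 on the log2 scale). At Rplp2 all old libraries (17.6 to 19.1 CPM) lay below all young ones (24.5 to 26.5 CPM), and at Rps12 too (27.5 to 33.9 against 40.05 to 43.3 CPM). Of 79 H3K27ac promoter peaks at 76 members, 57 had a ratio above 1, with a median log2 ratio of 0.071 that became -0.019 when the libraries were scaled to the same median signal. Of all promoter peaks, 44.6% had a ratio above 1, with medians of -0.029 and -0.12. After that scaling, 40.5% of member peaks and 30.0% of all promoter peaks had a ratio above 1. At a ratio over 1.5 in the same direction in each pairing, none was higher and 1, Rps4l, was lower, where 2.71% of all promoter peaks were higher and 1.1% lower. With 2 libraries per age no test was made. In YHSCs, member promoters had a median H3K27ac signal of 7.75 against 3.78 for all promoter peaks, and an H3K4me3 signal of 27.8 against 17.4.

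**Figure D3:**
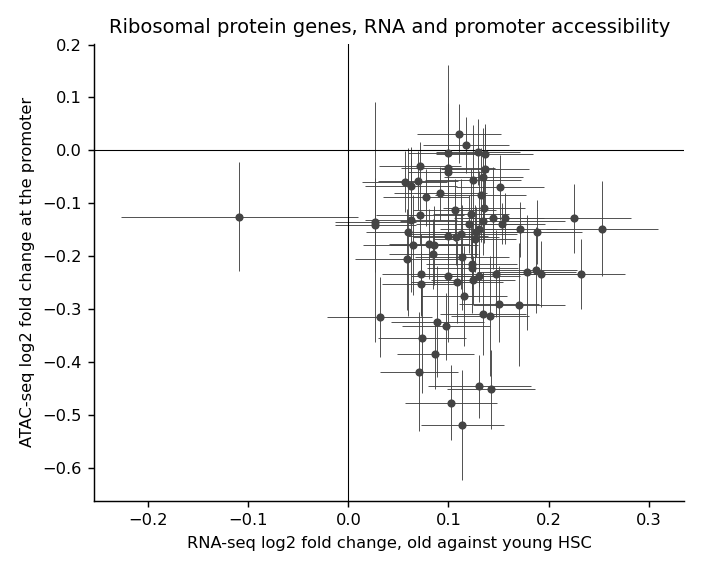
Log2 fold change from young to old HSCs in RNA (x axis) and in ATAC-seq counts at the promoter (y axis), 1 point per promoter region with standard errors. Rps4l lies outside the plotted range and is left out of the 76 points shown. The median accessibility change of members, -0.16, lies beside that of promoters of protein-coding genes, -0.14.

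H3K27me3 peaks were found at only 4 members, Rpl22, Rpl39l, Rpl3l and Rps4l. Rpl22, which restrains expression of its paralog Rpl22l1, is itself abundant at 152 to 161 CPM in YHSCs. Its upstream H3K27me3 region reached 1.95 and 2.16, percentile 98.3 among promoter peaks of that mark, and ended before its H3K4me3 peak began. Rpl39l and Rpl3l are nearly silent in these cells, and had signals of 0.307 to 0.616.

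With the Btaf1 shRNAs, no ribosomal protein mRNA passed the test against the control shRNA, in culture or after transplantation. The gene-level count of Btaf1, which cannot separate its variants, was 137 and 141 CPM in control culture and 110 to 119 CPM in the 4 shRNA libraries. After transplantation it was 161 and 165 CPM in controls and 118 to 139 CPM with shRNA. Of 80 members tested in culture none passed an adjusted p of 0.05 by edgeR, where 1.7% of all genes were called higher and 1.66% lower. At an unadjusted p below 0.05 there were 6, where 15.3% of all genes were, and DESeq2 called none and had 5 unadjusted. The median log2 fold change was 0.029, and the members ran from -0.036 to 0.087 between their 10th and 90th percentiles.

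Of the members with an unadjusted p below 0.05, Rps27 and Rps27l were both slightly above the control, by 0.12 ± 0.042 (adjusted p = 0.15, edgeR) and 0.13 ± 0.038 (adjusted p = 0.077). With shRNA2 alone against the controls, Rps27l (0.16), Rpl38 (0.17) and Rps4l (0.53) passed the test, and with shRNA1 alone Rps27 (0.15). Of all genes, 3.47% were called higher with shRNA2 alone and 4.2% with shRNA1 alone, so these counts lie near or below the background. Rps4l was at 6.08 and 6.06 CPM in control culture, 6.93 and 6.89 with shRNA1, and 8.69 and 8.84 with shRNA2.

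After transplantation none of 79 members passed the test in either direction, and neither did any other gene, with 0% called higher and 0% called lower by edgeR. Over all genes, 666 were higher and 472 lower at an unadjusted p below 0.05, and DESeq2 called 29 higher and 19 lower. No member had an unadjusted p below 0.05, by edgeR or DESeq2, and the median log2 fold change was -0.019. The difference of the shRNA effect between transplantation and culture was called at none of 80 members, with 0.103% of all genes higher and 0.107% lower. Of the members, 3 had an unadjusted p below 0.05 for this difference by edgeR, where 8.75% of all genes did, and 3 by DESeq2. Rps4l spread widely among transplanted shRNA libraries, at 2.15 and 6.98 CPM with shRNA1 and at 2.62 and 8.99 CPM with shRNA2, against 3.84 and 4.34 CPM in controls.

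**Figure D4:**
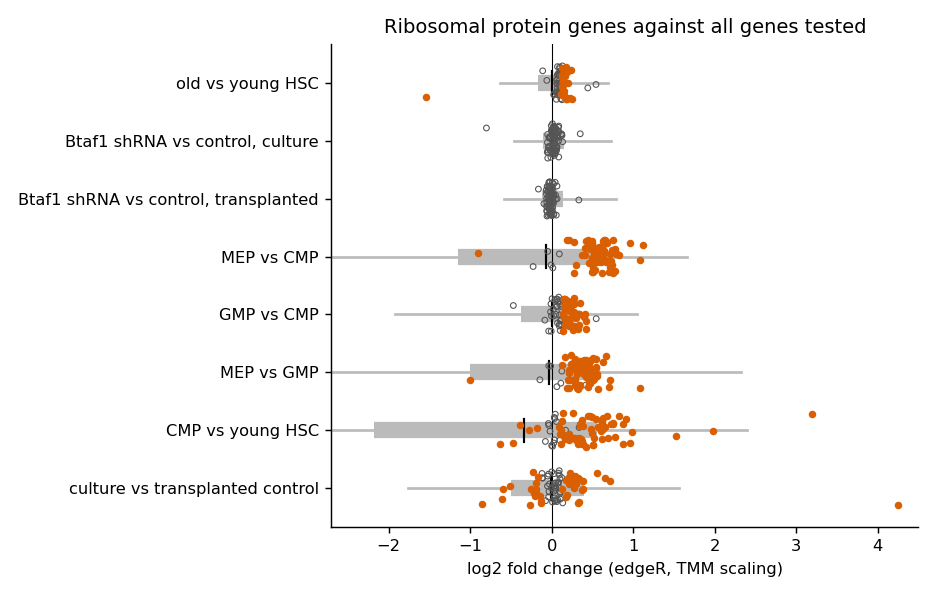
Log2 fold change (x axis, edgeR with TMM scaling) of each ribosomal protein gene tested in 8 comparisons, filled where the adjusted p was below 0.05. Grey bars span the middle of all genes tested (quartiles as the thick bar, the 5th to 95th percentile as the thin one, ending at the axis limit) with the median as a black line, and the point farthest right is Rpl39l, on too few reads for a fold. In MEP against CMP 73 members are filled above 0, and in both knockdowns none is filled.

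Most ribosomal protein mRNAs stood higher in MEPs than in the other progenitors. Against CMPs, 73 of 79 members tested rose and 1 fell at an adjusted p below 0.05 by edgeR, where 28.9% of all genes were called higher and 35.6% lower. Past 1.5-fold, 35 were higher and 1 lower, against 17.5% and 29.2% of all genes. The median log2 fold change was 0.56 in members and -0.066 in all genes. The difference between these medians was 0.62, and 0.59 with only these 2 groups in the fit. Large subunit (43 of 45, median 0.56), small subunit (27 of 31, median 0.51) and stalk genes (3 of 3, median 0.70) rose together.

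Rplp0, the core of the stalk, was at 1193 and 1136 CPM in CMPs, 1239 and 1185 in GMPs and 1709 and 1791 in MEPs. That was 1.63-fold from CMP to MEP (log2 fold change 0.70 ± 0.043, SE; adjusted p = 7.60e-09). Rps21 rose the most, from 94.7 and 90.2 CPM in CMPs to 181 and 191 CPM in MEPs, 2.18-fold (log2 fold change 1.13 ± 0.067). Rpl13a, known for a regulatory role outside the ribosome, went from 15.3 and 15.98 to 31.5 and 29.6 CPM, 2.11-fold, on low counts that share exons with a neighbour. Rpl7a, whose start carries the longest run shown above, went from 223 and 216 to 358 and 360 CPM (0.82). The pseudogene Rpl6l was next to these at 0.97, on levels of 3.59 to 7.07 CPM. Other members past 1.5-fold included Rpl5, Rpl6, Rpl7, Rpl8, Rpl17, Rpl23, Rpl24, Rpl26, Rpl27, Rpl29, Rpl31, Rpl34, Rpl35a, Rpl36a, Rpl37a, Rpl38, Rpl41, Rplp1, Rplp2, Rps2, Rps4x, Rps12, Rps13, Rps15, Rps27a and Rps27l.

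Exceptions stood out against this common rise. Rps19 was at 860 and 845 CPM in CMPs and 731 and 791 CPM in MEPs, with a log2 fold change of -0.048 ± 0.046 (adjusted p = 0.38, edgeR). Of the other genes linked to inherited or acquired anemia, Rpl5 rose by 0.77, and there were rises of Rpl26 (0.79), Rpl35a (0.62), Rps7 (0.57), Rps26 (0.56), Rps24 (0.50), Rpl11 (0.49) and Rps14 (0.47). Other members not called included Rps27 (0.095), Rps10 (-0.23) and Rpl32l (0.015). Rps4l fell by 0.90 on the log2 scale, from 22.6 and 19.5 to 11.1 and 9.68 CPM.

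Against GMPs, 70 members were higher in MEPs and 1, Rps4l, lower (27.7% and 33.7% of all genes). Past 1.5-fold there were 5 higher and 1 lower (16.6% and 27.2% of all genes). The 5 were Rpl13a (1.08), Rpl17 (0.71), Rps21 (0.70), Rpl26 (0.66) and Rpl7 (0.63). Mitochondrial ribosomal protein genes also stood higher in MEPs than in CMPs (68 of 76 up, 2 down, median 0.66), and so did 27 of 30 ribosome biogenesis genes and 14 of 16 translation factors. Of the 9 signalling genes, 5 rose and 3 fell, the falls being Rps6ka1 (-2.16), Mtor (-0.57) and Rptor (-0.59). Among the translation factors, Eif4ebp1, the mTOR-controlled brake on translation, rose by 1.65.

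Marker sums differed with these groups. The 7 cell cycle genes gave 2975 to 3059 CPM in MEPs, 2298 to 2310 in CMPs and 2424 to 2531 in GMPs. The granulocyte and monocyte markers gave 39.0 to 66.6 CPM in MEPs and 16330 to 19610 CPM in CMPs, and the erythroid markers 272 to 274 CPM in CMPs against the sums in MEPs given above. Their part in the higher level of MEPs was not tested.

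GMPs against CMPs gave a direction that depended on the scaling. With TMM, 48 of 79 members were higher and none lower at an adjusted p below 0.05 (18.8% and 16% of all genes), none past 1.5-fold, with a median log2 fold change of 0.17. With library size scaling alone, 4 members were higher and 17 lower, and their median was -0.052. Of all 18234 genes tested, 1498 were higher and 5468 lower with that scaling. The 9 granulocyte and monocyte markers took 55960 to 56950 CPM in GMPs and 16330 to 19610 CPM in CMPs, and their part in this was not tested. The median of all genes moved from 0.0082 to -0.21 between these scalings, and the members stood 0.16 above it with TMM, a difference that rescaling by itself leaves nearly as it is. Rps21 (0.42), Rplp2 (0.42), Rpl35a (0.40), Rpl10 (0.40) and Rpl30 (0.34) were the largest rises among members that passed the test, and higher in both GMP libraries than in both CMP libraries in CPM too. Without CMP replicate 2 or GMP replicate 1, 27 and 28 members were called higher, in fits that assume the lone library varies like the other groups.

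CMPs and YHSCs were prepared in different experiments, so cell type and experiment cannot be told apart. With TMM, 59 of 79 members were higher in CMPs and 5 lower (33.2% and 47.8% of all genes), and past 1.5-fold 23 higher and 1 lower (23.2% and 41%). With library size scaling 32 members were higher and 32 lower, where 5191 and 13327 of all 22360 genes tested were. The median of all genes lay at -0.34 with TMM and at -0.70 with library size scaling. Relative to that median members stood 0.70 higher with TMM, a difference that rescaling alone hardly alters, but it was 0.56 with the replicate block, 1.62 with DESeq2 and 2.30 with no filter on low counts, which change the libraries or genes that enter. Reads on the annotated ribosomal pseudogenes of the -ps class stood at 0.66 to 0.74 per 100 member reads in YHSCs and 1.22 and 1.24 in CMPs, and at 1.17 to 1.47 in every other library outside the fresh HSC set. Rpl32l and Rpl6l, processed pseudogenes among the members, were at 0.498 to 0.598 and 1.119 to 1.29 CPM in YHSCs and at 3.37 and 4.23, and 3.78 and 3.59 CPM, in CMPs.

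Among protein-coding members, Rps27l had the largest rise and Rps27 the largest fall between YHSCs and CMPs. Rps27, the most abundant member per kb in YHSCs, was at 515, 511, 508 and 498 CPM there and at 258 and 249 CPM in CMPs. The fall was 1.55-fold with TMM (log2 fold change -0.64 ± 0.041, SE; adjusted p = 5.93e-11) and -1.005 on the log2 scale with library size scaling. Rps27l, a p53 target whose protein can replace that of Rps27 in the ribosome, was at 117, 111, 117 and 112 CPM in YHSCs and at 269 and 242 CPM in CMPs. Its rise was 2.89-fold (1.53 ± 0.054; adjusted p = 9.33e-15). Other members that were lower in CMPs were Rpl24 (-0.47), Rpl37a (-0.39), Rpl9 (-0.27) and Rps12 (-0.17). After Rps27l and the pseudogenes, the largest rises were Rpl27 (0.98) and Rpl29 (0.96), and among those that followed were Rps16 (0.88) and Rpl10 (0.88). Other members past 1.5-fold included Rpl4, Rpl5, Rpl6, Rpl8, Rpl15, Rpl18, Rpl35, Rpl35a, Rpl38, Rpl41, Rplp0, Rplp2, Rps2 and Rps15. The rises of Rps14 (0.11), Rps4x (0.12), Rps6 (0.33) and Rps7 (0.36) were below 0 with library size scaling.

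The balance of this pair does not depend on the scaling, because both genes are read in the same library. Reads that match both genes can be counted on either one or dropped, and how they were treated is not given. Per the study, fresh and transplanted HSC libraries were sequenced on different instruments. Whether read mapping differs between the sets was not tested. Per kb, the level of Rps27l was 15.5 ± 0.41 (SD, n = 4) for every 100 of Rps27 in YHSCs and 13.4 to 16.5 (median 14.9, n = 8) in OHSCs, which overlapped. It was 26.97 ± 0.20 (n = 2) in transplanted controls and 60.5 ± 2.0 in control culture. It reached 69.7 ± 3.5 in CMPs, 90.1 ± 5.9 in GMPs and 110.1 ± 6.2 in MEPs. No library of one of these last 5 groups overlapped with those of the next in this order. With Btaf1 shRNA the ratio was 58.1 to 63.2 in culture, around the controls at 59.1 and 61.9, and 27.4 to 31.8 after transplantation, above the controls at 26.8 and 27.1. Cell cycle markers ranged with the same groups, from 284 to 472 CPM in fresh HSCs through 705 to 951 CPM in transplanted HSCs to 1784 to 2083 CPM in culture and 2298 to 3059 CPM in progenitors. Their part in the balance was not tested. The groups also differ in experiment, sort and library kit, so the steps between experiments cannot be told apart from these. The steps among CMP, GMP and MEP lie within a single set of libraries.

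**Figure D5:**
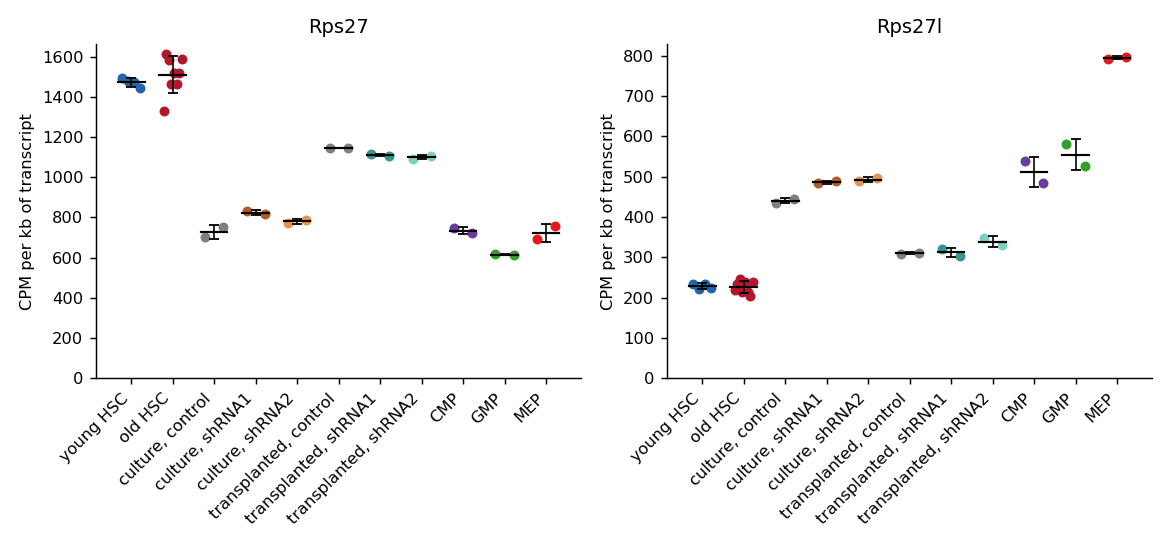
Levels of Rps27 (left) and Rps27l (right) per kb of transcript (y axis, CPM per kb) in each RNA-seq library, with mean and SD per group. Rps27 is highest in fresh HSCs and Rps27l is highest in MEPs.

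Control HSCs in culture and after transplantation also came from separate experiments and sorts, so growth setting, sort and experiment cannot be told apart. Here the members did not move as one. Of 80 tested, 24 were higher and 16 lower in culture (24% and 24.3% of all genes), and past 1.5-fold 3 were higher and 3 lower (12.6% and 15.2%). The median log2 fold change was 0.054, and -0.092 with library size scaling, which gave 15 higher and 27 lower. Of all 19518 genes tested, that scaling gave 3416 higher and 6376 lower. Rps27 was at 243 and 260 CPM in culture and 396 and 396 CPM after transplantation (-0.51 ± 0.048; adjusted p = 4.29e-05, edgeR), and Rps27l at 217 and 222 against 154 and 155 CPM (0.65 ± 0.048; adjusted p = 9.77e-06). Rps25, whose protein is needed for translation from some internal entry sites, was at 350 and 373 CPM in culture and 609 and 596 CPM after transplantation (-0.59 ± 0.046). Rpl37a was at 291 and 310 against 492 and 521 CPM (-0.61).

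Of the other members named for this comparison, Rps10 (-0.86) and Rpl36a (-0.27) fell while Rpl13a (0.55) and Rps4l (0.72) rose. Rpl39l passed the test on 0.374 and 0.590 CPM in culture against 0 and 0.0475 CPM after transplantation, too few reads for a fold. It entered the test through the culture controls alone, and is counted among the members higher in culture, also past 1.5-fold. Fewer members were called with a single culture control left, in fits that assume it varies like the 2 transplanted controls. Without culture control replicate 2, 14 were higher and 9 lower, and without culture control replicate 1, 4 were lower. Rps27 and Rpl37a were lower both in culture and in CMPs, and Rps27l higher in both. These comparisons share no library, and each spans separate experiments. In both, the group with more Rps27l also had the higher sum of cell cycle markers, whose part was not tested.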

How the data were processed

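RNA-seq of fresh HSCs, shRNA-carrying HSCs and young progenitors, ATAC-seq and histone ChIP-seq were read from the deposited tables. Per the authors, RNA reads were trimmed (trim galore 0.4.3, cutadapt 1.12), aligned to mm10 with STAR on a GENCODE M22 index and counted with featureCounts, which gave the raw gene counts that the authors deposited. How that counting treated strand and reads with several matches is not given. The ATAC-seq files hold raw counts per consensus region deposited by the authors, and the histone tables a normalized signal per peak. Columns of the authors' own fold changes were not used, nor were 8 columns that no listed sample could be tied to. The labels and the methods name different RNA library kits for some sets, and differences between sets cannot be told apart from kit, sort or experiment.

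Groups were taken from the labels. Counts were scaled with TMM, filtered with filterByExpr and tested with edgeR's robust quasi-likelihood test (edgeR 4.0.16, R 4.3.3), adjusted over all genes by Benjamini-Hochberg, with spike-ins left out of the totals. CMP, GMP and MEP shared a fit. ATAC-seq regions above 1.5 CPM in at least 4 libraries were tested likewise. Alternatives were DESeq2 1.42.0, other scalings, filters and fold limits, each library left out, and a replicate block. No 2 replicates of a group agreed within sampling noise (chi-square per gene of 5.60 to 26.1). In simulated data, 200 genes changed 2-fold were recovered at 98.5% for the age comparison and 93% for MEP against CMP. Recovery was 81% for the knockdown after transplantation and 75.5% for the difference of the shRNA effect between transplantation and culture. For ATAC-seq, 90.5% of regions were recovered. The changed genes were drawn from the better expressed ones, and changes below 2-fold were not simulated. CPM is per 1000000 reads counted on genes, and levels per kb use the longest principal transcript. Errors after ± are standard deviations between libraries, or standard errors where marked SE.

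Members and gene lists were chosen with earlier results of these data known. The genes named were 30 set members (the stalk, paralog pairs and members with known roles), the 5 largest rises and falls in each comparison, the 5 highest and lowest per kb, and members past 1.5-fold without overlap. Single values of some members that this rule names are not reported here. Python 3.11.15 with pandas 2.3.3, numpy 2.4.6 and matplotlib 3.10.9 served for tables and plots.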

Additional observations from a re-analysis of the deposited data

Results flagged for a closer look

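Of 68 sets of YHSC or OHSC values examined for a library far from the rest of its group, 2 held one, where chance gives about 1 in 20. Both concern Rpl10l, a testis gene near the limit of detection. YHSC replicate 4 had 0 CPM, where the other young libraries had 0.0418 to 0.0488 CPM. OHSC replicate 4 had 0.0894 CPM, where the next was at 0.0423 CPM and the others at 0. These levels stand for a few reads per library at most.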

How the results depend on the processing

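Directions held for the age rise, for MEP against both other progenitors and for Rps4l and the Rps27 pair, while counts of calls moved. For age, the 31 rises became 0 past 1.2-fold, 20 with DESeq2, 19 with no filter, 18 with spike-in factors, 13 with library size scaling (chosen after seeing the data) and 9 to 41 with a library left out. With the replicate block, although same-numbered libraries did not deviate together (correlations of -0.226 to 0.058), 13 rises were called, against 16 in the same libraries without it. Of all genes, 2595 of 21605 were called higher with age by DESeq2 and 2452 of 51415 with no filter. It was 2293 of 21522 with spike-in factors and 2181 of 21522 with library size scaling. In culture, 1 member was called higher with shRNA1 alone, 3 with shRNA2 alone and 1 with library size scaling. That scaling made 3 members lower in MEP than in CMP, where no filter gave 2 and leaving out a library 1 to 2, and it gave 4 higher and 17 lower in GMP against CMP (median -0.0522), 32 and 32 in CMP against YHSC (median -0.0068) and 15 and 27 in culture against transplantation. Under it Rpl11 (-0.0689), Rpl23 (-0.0691), Rpl41 (-0.0102), Rps26 (-0.0522), Rps4x (-0.0844), Rps6 (-0.0426) and Rps7 (-0.076) turned negative for GMP against CMP, and Rps14 (-0.2561), Rps4x (-0.2471), Rps6 (-0.0432) and Rps7 (-0.0068) for CMP against YHSC. The cause was not tested. Past 1.2-fold, 17 members stayed higher in GMP and 5 lower in culture. Past 1.5-fold, 35 were higher in MEP than CMP, 0 in GMP than CMP, 5 in MEP than GMP, 23 higher and 1 lower in CMP than YHSC, and 3 and 3 in culture. With a library left out, 27 to 46 were higher in GMP, and 14 to 29 higher and 4 to 18 lower in culture. For ATAC-seq, 1 region was lower at the stricter limits, and for H3K27ac 4 peaks were higher at a ratio of 1.2. The share of reads moved by more than its SD in some shRNA groups of 2 libraries, and in both culture shRNAs together (4 libraries): to 2.55% (culture shRNA1) and to 2.71% and 2.68% (transplanted control and shRNA1) without mitochondrial genes, and to 2.57%, 2.55%, 2.56% (culture shRNA1, shRNA2, both), 2.73% and 2.70% (transplanted control and shRNA1) with pseudogene rows. Depth limits Rpl3l and Rpl10l, which had too few reads to test, and Rpl39l, which was tested only in the comparisons of cultured HSCs.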
